A study of Mus musculus with 16 samples.

Results

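Magnetic isolation of glomeruli can carry tubule with it, and the level of a tubule gene differed widely between the 16 glomerular libraries described here. Slc34a1, the sodium-phosphate cotransporter of the proximal tubule brush border, ranged from 2.59 to 241 FPKM (fragments mapped to a gene, scaled by its transcript length and by the mapped fragments of the library), a 93.3-fold range. The groups were chosen by this value alone. A library was called tubule-rich at 80 FPKM or more (7 libraries) and tubule-poor under 30 FPKM (7 libraries), so that 14 of 16 libraries entered the comparison and the 2 between were left out. Slc34a1 itself is therefore a description and is not counted among the genes found. The libraries just inside the limits were at 29.4 FPKM in the tubule-poor group and at 80.9, 82.0 and 82.2 FPKM in the tubule-rich group, and the 2 left out were at 40.7 and 50.2 FPKM.

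All 16 libraries came from mice of the same genotype, eNOS-/-//db/db, which lacked endothelial nitric oxide synthase and were homozygous for the db allele of the leptin receptor, a cross that serves as a diabetic nephropathy model. There were 9 libraries that came from mice without drug and 7 from mice given a RAAS block (RAAS, the renin-angiotensin-aldosterone system) that paired lisinopril, an inhibitor of angiotensin conversion, at 20 mg/day with the receptor antagonist losartan at 30 mg/day, both in the water from an age of 10 to 12 weeks up to 26 weeks. Iron had been perfused through the kidneys and the glomeruli of 1 kidney were collected on a magnet. The tubule-rich group held 4 untreated libraries (replicates 1, 2, 4 and 5) and 3 RAAS-blocked libraries (replicates 1, 2 and 5). The tubule-poor group held 5 untreated libraries (replicates 0, 3, 6, 7 and 8) and 2 RAAS-blocked libraries (replicates 4 and 6). Both libraries between the limits were RAAS-blocked (replicates 0 and 3). No library of another genotype was analysed here.

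The proximal tubule reclaims most of the filtered glucose, amino acids, phosphate and protein, secretes organic ions, makes glucose and burns fatty acids. The thick ascending limb and distal tubule that follow take up salt without water, and the collecting duct sets the final water content under vasopressin. The glomerulus has none of these transport programs: it is built of podocytes, fenestrated endothelium and mesangial cells. In bulk RNA, fewer cells of a type and less RNA per cell cannot be told apart, so every level below is a level in the preparation and not in a cell.

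Glomerular markers were abundant in every library. Nphs1, which encodes nephrin of the slit diaphragm, ran from 181 to 470.1 FPKM, and the endothelial gene Emcn from 369 to 988 FPKM. Depth in reads is unknown, since the files give FPKM only. Summed over all symbols, FPKM came to 1.10e+06 in untreated replicate 7 (tubule-poor) and 1.17e+06 in RAAS-blocked replicate 5 (tubule-rich). The other libraries ran from 408454 to 492575, and the cause was not tested. Another pair of libraries stood apart in other ways, both tubule-poor and RAAS-blocked. Replicate 4 had 16919 symbols above 0 against 17993 to 18613 in the others, and replicate 6 had the lowest Slc34a1 and the highest Cxcl1, Adamts4, Maff and Nupr1. Other inflammatory genes peaked elsewhere, S100a8 and S100a9 in RAAS-blocked replicate 0 and C1qb and Cd74 in untreated replicate 3. Rn18s, the symbol of 18S ribosomal RNA, is listed at 0 in all 9 untreated libraries and was at 2214 to 9925 FPKM in all 7 RAAS-blocked ones, the highest in replicate 4. It was above 0 in only 5 of the 14 libraries compared and so was not tested, and its part in any difference between treatments was not tested either. Where a count below moved by 1.5 times or more without RAAS-blocked replicates 4 and 6, the count without them stands beside it.

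Tubule-rich and tubule-poor libraries were compared gene by gene on log2(FPKM + 1) with limma, with treatment in the model and Benjamini-Hochberg adjustment over all genes tested. A log2 difference is tubule-rich minus tubule-poor and understates the change of low genes. Of 13131 genes tested besides Slc34a1, 670 were higher in tubule-rich libraries (5.10%) and 148 were lower (1.13%) at an adjusted p under 0.05. At an unadjusted p under 0.05 the counts were 1697 higher and 1247 lower, where 657 genes in all are expected by chance. The higher genes moved further. Among them 309 differed by at least 1 on the log2 scale and 93 by at least 2, whereas 8 lower genes differed by at least 1 and 108 of the 148 by less than 0.5. The 2 groups did not overlap in 218 of the higher and 33 of the lower genes. These are counts among called genes, which were picked for a difference, and the share over all genes tested was not counted. Of the higher genes, 31 were under 1 FPKM in all 7 tubule-poor libraries, so these passed the filter only through the tubule-rich group. Single lower calls in the lists below are to be read beside the 1.13% over all genes. Counts of signs in the lists stand beside 45.4% positive differences over all genes tested besides Slc34a1. Members of a list may vary together between libraries, so a shared sign is not a set of separate results. Without RAAS-blocked replicates 4 and 6 the counts were 371 higher and 53 lower, and without untreated replicates 1 and 4, the libraries with the highest Slc34a1, 243 higher and 13 lower. Leaving out single libraries gave from 349 higher and 34 lower genes (both without untreated replicate 4) to 944 higher (without untreated replicate 5) and 365 lower (without RAAS-blocked replicate 4).

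**Figure D1:**
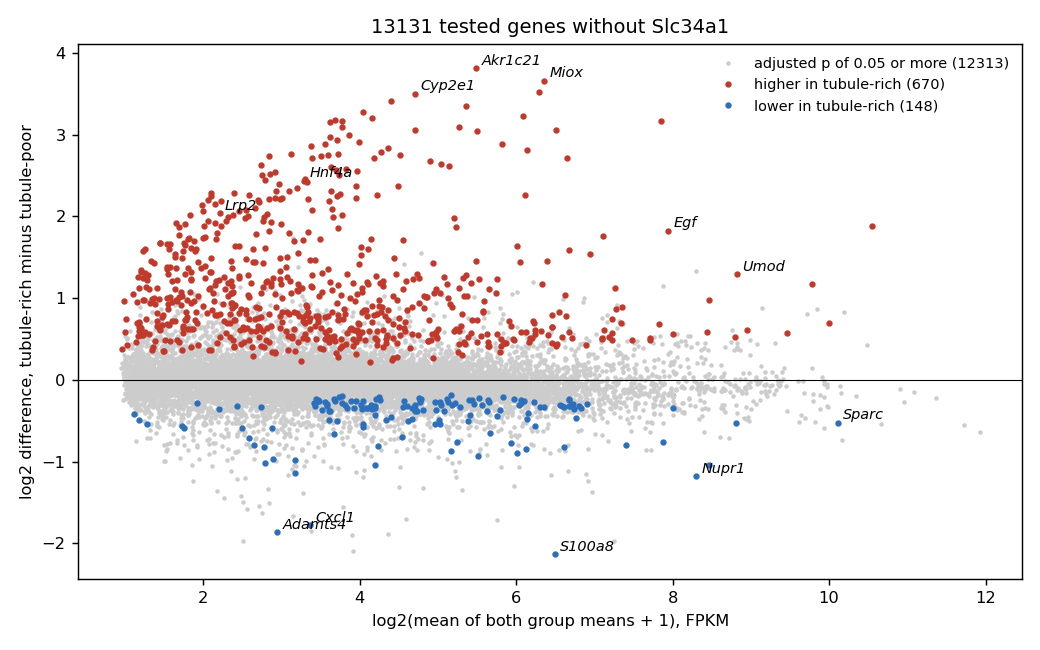
Log2 difference between tubule-rich and tubule-poor libraries (vertical axis) against the log2 of the mean level in FPKM plus 1 (horizontal axis) for 13131 tested genes, Slc34a1 left out, with the 670 higher genes in red, the 148 lower genes in blue and the rest in grey. The red points reach 3.81 (Akr1c21) and the blue ones -2.14 (S100a8), and most blue points lie close to 0.

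The share of higher calls depended on the scale. It was 81.9% on FPKM as deposited. When each library was scaled so that its podocyte genes had the same mean level, 1034 genes were higher and 3 lower, the median of all genes moved from -0.02 to 0.26, and 55 of the 818 calls changed sign. The lower genes below are therefore lower on FPKM as deposited, and only Adamts4, Cxcl1 and Nupr1 also passed as lower against the podocyte level. Others stayed negative under that scaling without passing, and the median of the neutrophil list was -1.62.

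Genes of the proximal convoluted tubule were the group with the largest differences. Of 21 members tested besides Slc34a1, 20 were higher in tubule-rich libraries and none lower, with a median log2 difference of 2.31 against -0.02 over all genes. Because another gene of the same cells chose the libraries, this count describes what came with Slc34a1 and is not independent evidence of it. In this list, and in those of organic ion and amino acid transport below, 1 of the genes that rose (Cubn, Slco1a6 and Slc6a20b) was under 1 FPKM in every tubule-poor library and passed the filter only through the tubule-rich group, which leaves 19 of 20, 8 of 13 and 11 of 13. Lrp2, which encodes megalin, the receptor for filtered protein, was at 3.63, 6.72 and 10.1 FPKM (lowest, median, highest) in tubule-rich libraries and at 0.224, 0.658 and 1.90 FPKM in tubule-poor ones. Every tubule-rich library lay above every tubule-poor one, and the log2 difference was 2.04 (SE 0.25, limma adjusted p = 0.000486). Its partners in the uptake complex rose with it, cubilin (Cubn) by 1.38 and amnionless (Amn) by 1.88. The adaptor Dab2, which also serves receptor uptake in other cells, did not pass: it averaged 41.4 FPKM in tubule-rich and 38.1 FPKM in tubule-poor libraries.

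Genes of sugar metabolism were among those with the largest differences. Miox, the oxygenase that starts the breakdown of inositol, was at 70.8, 114 and 241 FPKM against 2.59, 11.0 and 23.5 FPKM, a difference of 3.66 (SE 0.46, limma adjusted p = 0.000536), and the groups did not overlap. Of 13 gluconeogenesis and fructose genes tested, 11 rose and none fell, with a median of 1.81. Fructose bisphosphatase (Fbp1) was at 40.1, 64.3 and 137 FPKM in tubule-rich against 1.98, 5.33 and 14.3 FPKM in tubule-poor libraries, a difference of 3.35 (SE 0.38, limma adjusted p = 0.000395) without overlap. The glucose 6-phosphatase G6pc rose by 2.77, sorbitol dehydrogenase (Sord) by 2.26 and ketohexokinase (Khk) by 1.98. Pck1, the cytosolic carboxykinase that commits carbon to glucose, rose by 3.06 (SE 0.62, limma adjusted p = 0.0113), although its lowest tubule-rich library, at 42.2 FPKM, was below the highest tubule-poor one, at 62.2 FPKM. The mitochondrial form Pck2 had a difference of 0.22 and did not pass.

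**Figure D2:**
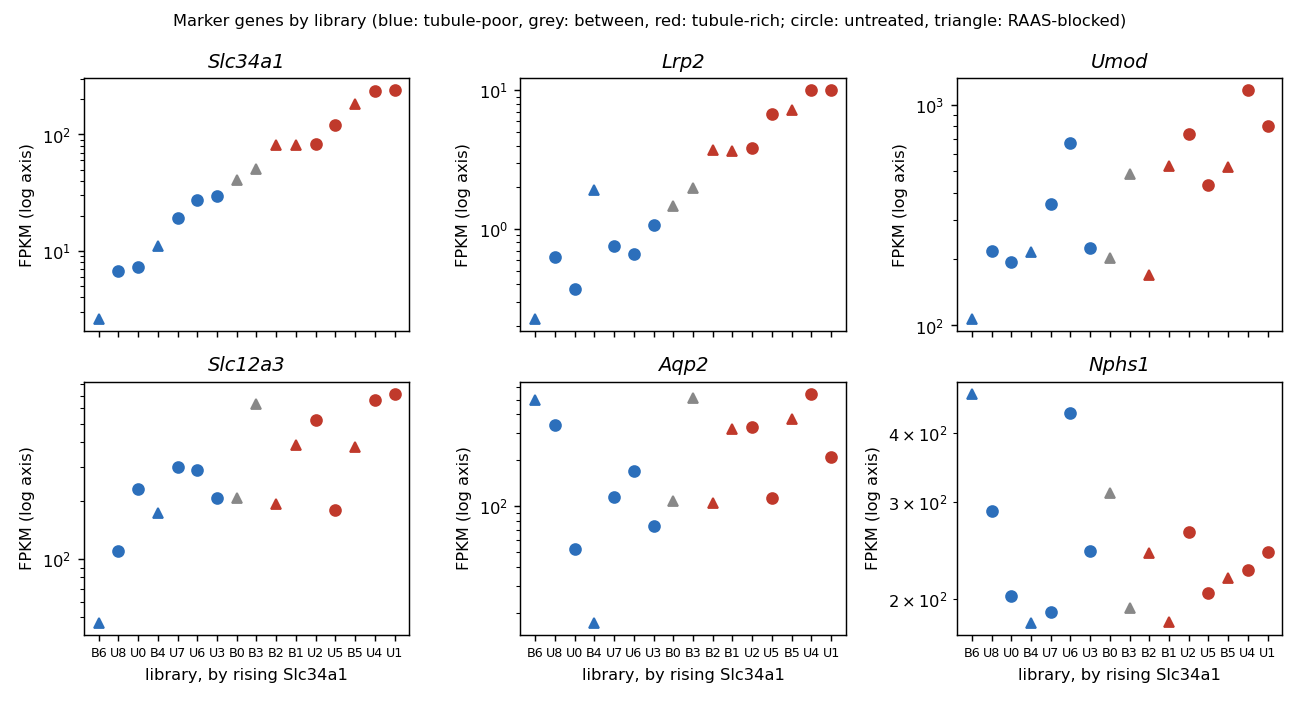
FPKM on a log axis of Slc34a1, Lrp2, Umod, Slc12a3, Aqp2 and Nphs1 in each of the 16 libraries, ordered from left to right by rising Slc34a1, with tubule-poor libraries in blue, the 2 between in grey and tubule-rich ones in red, circles for untreated and triangles for RAAS-blocked mice. Lrp2 follows the order closely, from 0.224 to 10.1 FPKM, while Aqp2 does not: its value in the library with the least Slc34a1 is 498 FPKM.

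Transporters of the apical and basolateral membranes rose in most cases. Of 14 tested genes of organic anion and cation transport, 9 rose and none fell, with a median of 2.06: the basolateral organic anion exchangers Slc22a6 and Slc22a8 rose by 2.74 and 2.98, the urate exchanger Slc22a12 by 2.71 and the cation extruder Slc47a1 by 2.42. In the same list Slc22a5, Abcg2, Abcc4 and Abcb1a did not pass, with differences of 0.51, 0.22, -0.09 and -0.18. Of 14 amino acid transport genes, 12 rose, among them the neutral amino acid carrier Slc6a19 by 2.93, its partner collectrin (Tmem27) by 2.81 and both subunits of the cystine carrier, Slc3a1 by 2.22 and Slc7a9 by 2.08. Slc3a2, the heavy chain that many cell types carry, averaged 71.3 FPKM in tubule-rich and 73.7 FPKM in tubule-poor libraries. Without untreated replicate 4, 7 of the 14 passed.

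The largest rises of all belonged largely to detoxifying and small-molecule enzymes. The aldo-keto reductase Akr1c21 was at 26.2, 81.6 and 153 FPKM in tubule-rich libraries against 1.33, 4.63 and 10.7 FPKM in tubule-poor ones, a difference of 3.81 (SE 0.37, limma adjusted p = 0.00039) without overlap. Dnase1, the secreted nuclease of urine, rose by 3.53, Cyp2e1 by 3.50, Acsm2, an acyl-CoA synthetase, by 3.42, Cyp2d26 by 3.28, Spink3 by 3.23, Nat8 by 3.18 and Ugt3a2 by 3.16. Hpd, an enzyme of tyrosine breakdown, rose by 3.20 on average but overlapped, with tubule-rich values from 0.393 to 165 FPKM and tubule-poor ones from 0.171 to 1.81 FPKM. Of 27 xenobiotic enzymes tested, 19 rose and none fell, with a median of 1.55. Without untreated replicates 1 and 4 the count was 11. The 8 that did not pass included the abundant Cyp4b1, Gstm1, Gsta4 and Ephx1, which averaged 266, 171, 136 and 142 FPKM in tubule-rich libraries. Cytochrome P450, Ugt, Gst, Akr1c and Nat8 genes have close relatives in the genome that may share reads, so the split between members of these families is uncertain.

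The last part of the proximal tubule is its straight segment. Of 11 straight-segment genes tested, 8 rose and none fell, with a median of 1.29. Of these, 2 (Aadat and Slco1a6) were under 1 FPKM in every tubule-poor library, so that they passed the filter only through the tubule-rich group and had to come out higher: of the other 9, 6 rose. Besides Cyp2e1 those that rose included Acy3 (1.27), which did not overlap either. The defining carrier of that segment, Slc7a13, was nearly absent, with 0.106 to 0.890 FPKM in tubule-rich and 0 to 0.210 FPKM in tubule-poor libraries, and Slc22a7 and Slc22a13 were too low to be tested as well. Without untreated replicate 4 the count was 5 of 11.

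Fatty acid oxidation genes rose in part and by little. All 28 tested members had positive differences, 14 passed, and the median was 0.47. The largest were Acaa1b, a peroxisomal thiolase, at 1.71, the nuclear receptor Ppara at 1.22 and Ehhadh at 1.10. Acaa2, the mitochondrial thiolase, was at 79.1, 103 and 139 FPKM against 52.6, 67.5 and 85.0 FPKM, overlapping, with a difference of 0.64 (SE 0.11, limma adjusted p = 0.00424). The carnitine shuttle genes Cpt1a (0.25), Cpt2 (0.47) and Slc25a20 (0.10) did not pass. The count of 14 was 8 when untreated replicate 0, 4 or 8 or RAAS-blocked replicate 5 was left out. Peroxisomal genes were divided: 10 of 27 rose, led by the oxidases Hao2 (3.06), Dao (2.60) and Pipox (2.23), while none of the 14 tested peroxin (Pex) genes passed, and the count of 10 was 4 when any 1 of the same 4 libraries was left out. For oxidative phosphorylation, all 52 nuclear subunits had positive differences with a median of 0.44, and 13 passed. That count was 0 without untreated replicate 1, 0 without untreated replicate 4, 1 without RAAS-blocked replicates 4 and 6, and 31 after quantile normalization.

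Because the title of the series concerns triacylglycerol, its genes were read in the same way. Of 20 tested, 4 rose and none fell, with a median of 0.15. Cideb, a lipid droplet protein, rose by 2.32 without overlap, Mogat1 by 1.43, Fitm1 by 1.37 and Dgat2, an acyltransferase that completes triacylglycerol, by 1.02. Without untreated replicates 1 and 4, 2 of the 20 passed. Dgat2 was at 6.81, 11.7 and 27.3 FPKM in tubule-rich and at 5.06, 5.83 and 8.46 FPKM in tubule-poor libraries (SE of the difference 0.20, limma adjusted p = 0.00885), and the groups overlapped. The other enzyme of that step, Dgat1, averaged 13.9 and 12.7 FPKM, and Gpam, which starts glycerolipid synthesis, 10.5 and 8.47 FPKM. Neither passed, nor did the droplet protein Plin2 (37.5 and 53.5 FPKM) or the lipase Pnpla2 (49.6 and 57.0 FPKM).

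Of 24 transcription factors of the nephron and glomerulus tested, 6 rose and none fell, and 4 rose without RAAS-blocked replicates 4 and 6. Hnf4a, the nuclear receptor that drives proximal tubule maturation, was at 7.56, 11.9 and 31.6 FPKM against 0.268, 2.12 and 3.03 FPKM, with no overlap and a difference of 2.44 (SE 0.33, limma adjusted p = 0.000742). The bile acid receptor Nr1h4 rose by 1.79 and Lhx1 by 1.32. The podocyte factors Wt1 (-0.47) and Tcf21 (-0.02) did not pass.

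Of 7 thin limb genes tested, none rose and 1 fell, with a median of -0.17 (0.15 under podocyte scaling). Without RAAS-blocked replicates 4 and 6 none of the 7 passed. In the thick ascending limb, 9 of 12 genes rose and none fell, with a median of 1.13. Umod, which encodes uromodulin, was at 169, 527 and 1168 FPKM in tubule-rich and at 107, 217 and 669 FPKM in tubule-poor libraries. The groups overlapped, and the difference of 1.29 (SE 0.35, limma adjusted p = 0.0456) passed narrowly: when each library was left out in turn, it held in 4 of 14 fits. Egf, made in the same segment, was firmer, at 203, 359 and 591 FPKM against 43.3, 81.5 and 278 FPKM (difference 1.82, SE 0.34, limma adjusted p = 0.00636), and so was the cotransporter Slc12a1 (1.55, limma adjusted p = 0.00911); both passed in all 14 such fits. The count of 9 was 3 without untreated replicate 4, 0 without untreated replicates 1 and 4 and 0 without RAAS-blocked replicates 4 and 6.

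In the distal convoluted tubule, 3 of 6 genes rose, Pvalb (1.58), Emx1 (1.23) and Wnk4 (45.4 against 22.4 FPKM on average), which passed in 4, 3 and 4 of the 14 leave-one-out fits. The count was 0 when any 1 of 9 libraries was left out (untreated replicates 0, 1, 2, 3, 4 and 7 and RAAS-blocked replicates 1, 5 and 6), and 0 without RAAS-blocked replicates 4 and 6. Slc12a3, the thiazide-sensitive cotransporter, did not pass (1.33, SE 0.39, limma adjusted p = 0.0582). None of the 6 connecting tubule, 9 principal cell and 12 intercalated cell genes passed. All 27 had positive differences, with medians of 0.74, 0.57 and 0.62. Aqp2, the vasopressin-regulated water channel, was at 105, 322 and 545 FPKM in tubule-rich and at 17.2, 114 and 498 FPKM in tubule-poor libraries, a difference of 1.15 with an SE of 0.67 (limma adjusted p = 0.337), against an SE of 0.35 for Umod. Urothelial genes were at most 1.17 FPKM for Upk1a in either group.

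**Figure D3:**
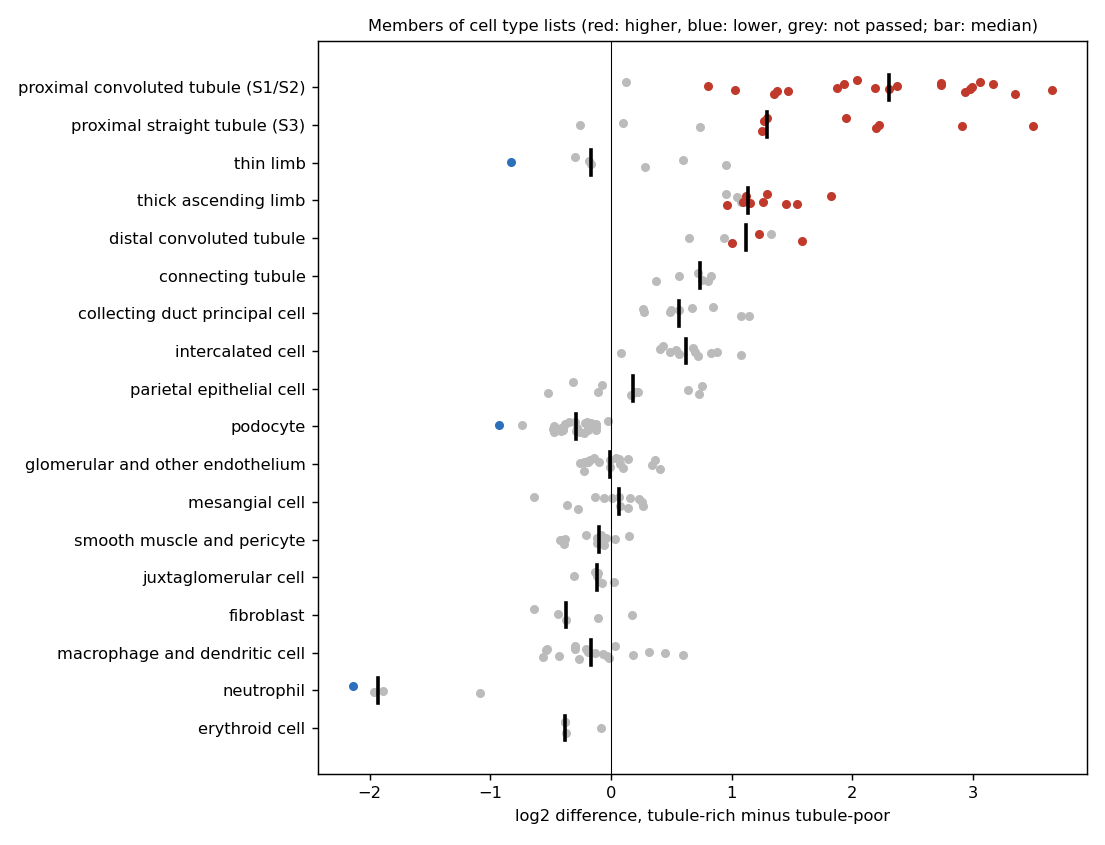
Log2 difference between tubule-rich and tubule-poor libraries for each tested member of 18 cell type lists (1 point a gene, red if higher, blue if lower, grey if not past an adjusted p of 0.05), with a bar at each list's median. The medians are 2.31 in the proximal convoluted tubule, 1.13 in the thick ascending limb and 0.57 in principal cells. The thin limb breaks this order with a median of -0.17, and the medians of glomerular lists lie near or below 0.

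The segments did not vary as a block from library to library. RAAS-blocked replicate 6 had the lowest Slc34a1 (2.59 FPKM), Umod (107 FPKM) and Slc12a3 (46.3 FPKM) of all 16 libraries, yet its Aqp2 was 498 FPKM, which only untreated replicate 4 (545 FPKM) and RAAS-blocked replicate 3 (515 FPKM) exceeded. Untreated replicate 8 was similar, with 6.70 FPKM of Slc34a1 and 342 FPKM of Aqp2. Conversely, untreated replicate 5 and RAAS-blocked replicate 2 were tubule-rich by Slc34a1 (121 and 80.9 FPKM), but had 113 and 105 FPKM of Aqp2 and 179 and 191 FPKM of Slc12a3, within the tubule-poor range.

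Across all 16 libraries, with Slc34a1 in no pair, Lrp2 and Umod were correlated (Pearson r = 0.68, permutation p = 0.00472, 0.0236 after adjustment over the 5 pairs computed; Spearman rho = 0.65, permutation p = 0.00744, adjusted 0.0372). The coefficient was 0.51 without untreated replicates 1 and 4, the 2 libraries farthest from the median of Lrp2, and 0.75 and 0.71 within untreated and RAAS-blocked mice. Lrp2 and Aqp2 gave r = 0.25 (permutation p = 0.342, adjusted 0.384; rho = 0.24, permutation p = 0.374, adjusted 0.467), and r = 0.12 without the same 2 libraries. Within untreated and RAAS-blocked mice the coefficient was 0.51 and -0.0014. Umod and Aqp2 gave r = 0.42 (permutation p = 0.105, adjusted 0.216; rho = 0.48, permutation p = 0.0652, adjusted 0.163), and r = 0.60 without RAAS-blocked replicate 6 and untreated replicate 4. Within the treatments it was 0.68 and 0.32. The coefficients of Nphs1 were -0.40 with Lrp2 (permutation p = 0.130, adjusted 0.216; rho = -0.26, permutation p = 0.325, adjusted 0.467) and -0.23 with Umod (permutation p = 0.384, adjusted 0.384; rho = -0.09, permutation p = 0.736, adjusted 0.736). Without the 2 libraries farthest from the median these were -0.46 and 0.12. With Lrp2 the coefficient of Nphs1 was -0.23 within untreated and -0.68 within RAAS-blocked mice. With Umod it differed in sign, at 0.23 within untreated and -0.76 within RAAS-blocked mice. All tests were two-sided.

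**Figure D4:**
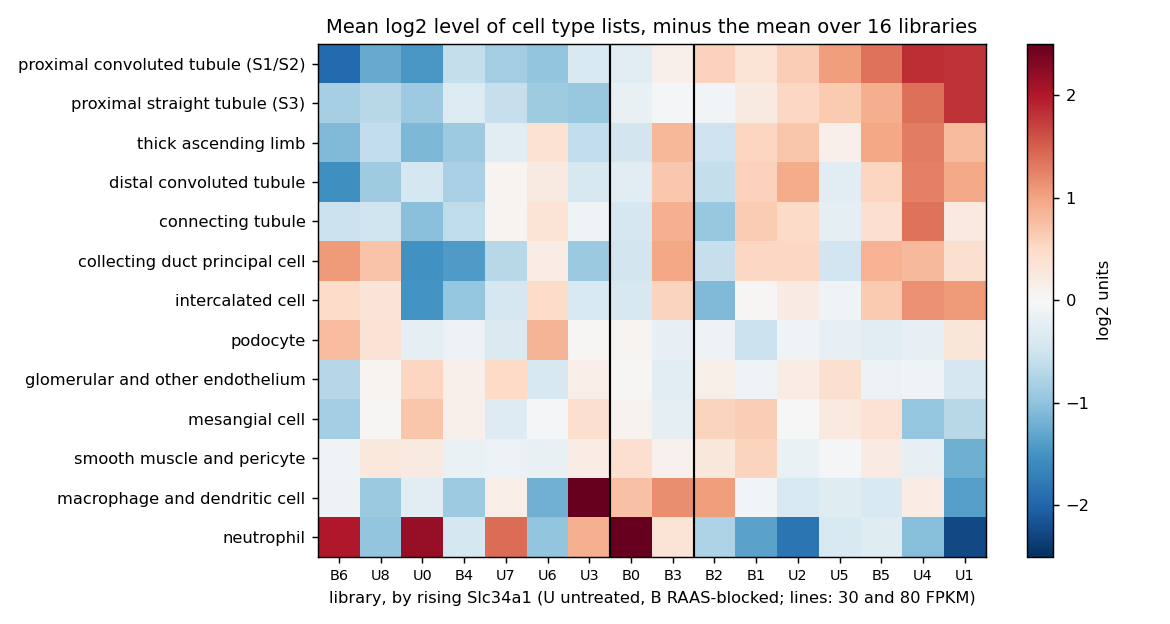
Mean log2 level of 13 cell type lists (rows) in the 16 libraries (columns, by rising Slc34a1; U untreated, B RAAS-blocked), as the difference from each list's mean over the libraries, red above and blue below; vertical lines mark 30 and 80 FPKM of Slc34a1. The proximal rows pass from blue to red across the plot, while the collecting duct row is red in B6 and U8, which had 2.59 and 6.70 FPKM of Slc34a1.

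Glomerular genes differed little. Of 26 podocyte genes tested, 1 was lower and none higher. All 26 differences were negative, with a median of -0.29, which became 0.03 under podocyte scaling by construction. The lower gene was Tdrd5, at 20.0, 29.9 and 43.4 FPKM in tubule-rich against 31.5, 49.4 and 87.9 FPKM in tubule-poor libraries, with overlap (difference -0.93, SE 0.23, limma adjusted p = 0.031), and it held in 7 of 14 leave-one-out fits and not without RAAS-blocked replicates 4 and 6. Nphs1 was at 182, 226 and 265 FPKM against 181, 244 and 470.1 FPKM, with overlap (difference -0.26, SE 0.22, limma adjusted p = 0.529). Podxl is listed at 0 in every library and says nothing. No gene passed among 19 of endothelium, 13 of mesangial cells, 12 of smooth muscle, 6 of juxtaglomerular cells and 10 of parietal epithelium, with medians of -0.01, 0.07, -0.10, -0.11 and 0.18. Their signs are not a finding: those of endothelium, smooth muscle and juxtaglomerular cells turned positive under podocyte scaling.

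Of 20 basement membrane and matrix genes, 1 fell. Sparc, a collagen-binding matrix protein, was at 728, 913 and 1049 FPKM in tubule-rich and at 946, 1332 and 1674 FPKM in tubule-poor libraries. Only 1 tubule-poor library came within the tubule-rich range, and the difference was -0.53 (SE 0.12, limma adjusted p = 0.0174), passing in 13 of 14 fits without 1 library (not without untreated replicate 4) and not without RAAS-blocked replicates 4 and 6. Under podocyte scaling it was -0.20 and did not pass. None of 51 cytosolic ribosomal protein genes passed (median -0.08, or 0.25 under podocyte scaling).

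The greatest falls in tubule-rich libraries were those of S100a8, Adamts4, Cxcl1 and Nupr1. Cxcl1, a chemokine that attracts neutrophils, was at 0.943, 4.15 and 6.20 FPKM in tubule-rich and at 6.82, 12.1 and 28.6 FPKM in tubule-poor libraries. The groups did not overlap (difference -1.78, SE 0.28, limma adjusted p = 0.00194), the call held in all 14 leave-one-out fits, and the 2 libraries between the limits, at 22.2 and 13.03 FPKM, lay in the tubule-poor range. Gprc5a, a receptor induced by retinoic acid, also did not overlap, at 3.45, 5.46 and 5.66 against 7.03, 11.3 and 15.4 FPKM (difference -0.98, SE 0.16, limma adjusted p = 0.00288), and nor did Lpcat2, which makes platelet-activating factor (difference -0.97, SE 0.22, limma adjusted p = 0.0216). They passed in 14 and 12 of the 14 fits. Adamts4, an aggrecan-cleaving protease, was at 0.566, 1.36 and 3.78 FPKM against 3.01, 4.97 and 53.7 FPKM (difference -1.86, SE 0.44, limma adjusted p = 0.0242). In 6 of the 7 tubule-poor libraries it was above every tubule-rich one, with the highest value in RAAS-blocked replicate 6, and it passed in 13 of the 14 fits.

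Other lower genes passed in fewer of the leave-one-out fits. Nupr1, a stress-induced chromatin protein, was at 140, 167 and 294 FPKM in tubule-rich and at 189, 384 and 1110.2 FPKM in tubule-poor libraries. The groups overlapped, and the highest value was that of RAAS-blocked replicate 6. The difference was -1.18 (SE 0.32, limma adjusted p = 0.0473), passing in 3 of 14 fits without 1 library. It was -0.66 (SE 0.32) in untreated and -2.14 (SE 0.42) in RAAS-blocked mice alone. Maff (-1.14), Gda (-1.05), Foxs1 (-1.02), Acpp (-0.90) and Gadd45b (-0.87) passed with overlapping groups, in 5, 3, 7, 3 and 6 of the 14 fits. Among 19 immediate early genes only Gadd45b passed, and among 17 tubular injury genes only Tnfrsf12a (-0.85), in 2 of the 14 fits; without RAAS-blocked replicates 4 and 6 no injury gene passed. The injury markers Havcr1 and Lcn2 did not pass: Havcr1 averaged 2.28 FPKM in tubule-rich and 2.58 FPKM in tubule-poor libraries, and Lcn2 32.2 and 90.8 FPKM, with 243 FPKM in RAAS-blocked replicate 6.

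Of 7 genes in the neutrophil list 4 could be tested, and 1 was lower. S100a8, a calcium-binding protein abundant in neutrophils, was at 9.57, 22.9 and 53.3 FPKM in tubule-rich and at 24.6, 89.6 and 438 FPKM in tubule-poor libraries (difference -2.14, SE 0.59, limma adjusted p = 0.049), overlapping, and it passed in 4 of the 14 fits. S100a9 (-1.97), Retnlg (-1.89) and Csf3r (-1.09) did not pass, and the median of the 4 was -1.93. No gene of the list passed when any 1 of 10 libraries was left out, nor without RAAS-blocked replicates 4 and 6. The list's summed level was 27.5 to 160 FPKM in tubule-rich and 87.7 to 1057 FPKM in tubule-poor libraries, and the library with the highest S100a8 of all, at 769 FPKM, was RAAS-blocked replicate 0, which was in neither group. Ly6g and Camp were at 0 in 6 and 7 of the tubule-rich libraries and at most 6.07 and 0.639 FPKM in tubule-poor ones. The part of neutrophils in the levels of Cxcl1 and the other lower genes was not tested. None of 18 macrophage genes passed; their summed level was 454 to 1774 FPKM in tubule-rich and 397 to 5413 FPKM in tubule-poor libraries, the highest in untreated replicate 3.

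**Figure D5:**
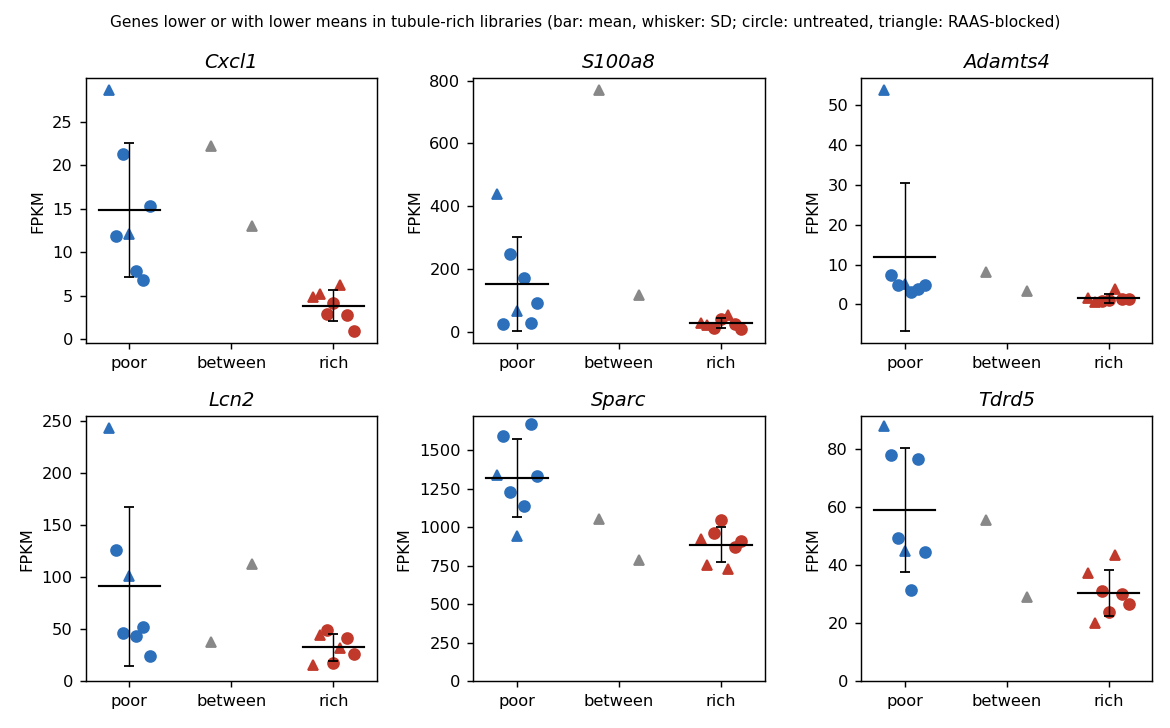
FPKM of Cxcl1, S100a8, Adamts4, Lcn2, Sparc and Tdrd5 in tubule-poor, between and tubule-rich libraries (1 point a library, circle untreated, triangle RAAS-blocked; bar mean, whisker SD, n = 7 in each outer group). For Cxcl1 all tubule-poor points lie above 6.20 FPKM, the highest tubule-rich value, and for Adamts4 a single tubule-poor point at 53.7 FPKM sets the whisker.

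The libraries left out of the comparison were read against it. They were left out for a Slc34a1 between the limits, and the genes were called for a gap between the same group means. A place between the means was therefore partly built in, and the share over all genes tested was not computed. The counts that follow are a description only. RAAS-blocked replicate 0 lay between the 2 group means in 478 of the 670 higher genes (71.3%) and replicate 3 in 456 (68.1%). Among the 148 lower genes they did so in 68 (45.9%) and 104 (70.3%). For Lrp2 they were at 1.47 and 1.96 FPKM, for Akr1c21 at 19.4 and 27.7 FPKM and for Hnf4a at 3.06 and 6.04 FPKM.

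Treatment and tubule group were separated as far as the design allowed. The difference between tubule-rich and tubule-poor libraries was tested for dependence on treatment in an interaction model, and 0 of 13132 genes passed with limma (0%), with 1273 at an unadjusted p under 0.05. Only 2 RAAS-blocked libraries were tubule-poor, and without 1 of these the count was 128 (without replicate 4) or 432 (without replicate 6), with a lone library then standing for that group. In untreated mice alone the difference of Lrp2 was 2.28 (SE 0.25) and in RAAS-blocked mice 1.58 (SE 0.46), that of Akr1c21 3.94 (SE 0.43) and 3.57 (SE 0.62), and that of Cxcl1 -1.86 (SE 0.36) and -1.63 (SE 0.36). Genes of vessels and mesangium were divided. Mgp (-0.87 in untreated and -0.22 in RAAS-blocked mice), Sfrp2 (-0.25 and -0.32), Plat (-0.17 and -0.25) and Pecam1 (-0.26 and -0.14) kept the same sign in both. Some others had opposite signs in the treatments, and those named next were picked for this after their values were seen. Myl9, a myosin light chain of smooth muscle, was at -0.87 (SE 0.40) in untreated and 1.28 (SE 0.24) in RAAS-blocked mice. The limma interaction p of Myl9 was 0.00366 before and 0.305 after adjustment over all genes. Pdgfrb, the growth factor receptor of mesangial cells and pericytes, was at -0.66 (SE 0.29) and 0.86 (SE 0.14), with an interaction p of 0.305 after the same limma adjustment. Gja5 (-0.64 and 0.88), Serpine2 (-0.93 and 0.70), Mcam (-0.54 and 0.40) and Ctgf (-1.04 and 0.69) were likewise negative in untreated and positive in RAAS-blocked mice, and none of these interactions passed after adjustment. Untreated libraries alone gave 292 higher and 27 lower genes, and RAAS-blocked libraries alone gave 0 and 0, with 907 higher and 526 lower at an unadjusted p under 0.05. With tubule group in the model, 0 of 13132 genes passed for RAAS-blocked against untreated mice (0%), with 1216 at an unadjusted p under 0.05. Of 14 renin-angiotensin and kallikrein genes, the kininogen Kng2 (1.12) and aminopeptidase N, Anpep (0.65), rose, and renin itself (Ren1) ranged from 6.92 to 1584 FPKM in tubule-rich and from 33.5 to 1362 FPKM in tubule-poor libraries (difference -0.13, SE 0.86). No gene of that list passed when untreated replicate 1, 4 or 8 or RAAS-blocked replicate 5 or 6 was left out, nor without RAAS-blocked replicates 4 and 6 together.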

How the data were processed

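Messenger RNA from isolated glomeruli was sequenced in 16 libraries, 1 column each. The authors deposited FPKM values for 25791 gene symbols. The submitters' processing notes list, without roles, TopHat2 2.0.8, Cuffdiff 2.2.1, Cufflinks, CASAVA 1.8.2 and FastQC. Build, annotation and strandedness: not given in the sources used here. Read counts are lacking as well. A gene therefore cannot be separated from an antisense or overlapping partner, and absolute depth is unknown. Steps between low values put 15 libraries at 1 to 1.69 times the depth of untreated replicate 0, and RAAS_blocked replicate 4 showed no clear step. No library pair was identical (r from 0.89 to 0.98).

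The groups were chosen on Slc34a1 (80 FPKM or more, under 30 FPKM). Genes reaching 1 FPKM in 7 or more of the 14 libraries were tested as log2(FPKM + 1) in R 4.3.3 with limma 3.58.1 (variance trend, robust), with treatment and tubule group as terms and Benjamini-Hochberg adjustment at 0.05. The function was tested on simulated data with noise drawn separately for each gene and no treatment effect. That run did not cover variation shared between genes. The labels do not state sample by sample that each library is a separate mouse, and give no batch, so the p-values rest on library-to-library spread only, which may be technical. Correlations used 100000 permutations.

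The members and the gene lists were chosen with earlier results of these data known. Named genes were up to 12 of the greatest rises and 12 of the greatest falls past the threshold whose mean reached 2 FPKM in a group (predicted symbols and small RNAs left out), up to 4 members of each cell type list and 3 of each other list by mean level, and a fixed set of markers; list members named besides these were chosen after their values were seen. Alternatives changed the pseudocount, filter, scaling, weights, covariate, split and libraries. Some genes of the lists are counted but not reported here by name.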

Additional observations from a re-analysis of the deposited data

Results flagged for a closer look

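Within each group of 7 libraries, the highest and the lowest value of every gene named by rule and reported were set against the gap to the nearest other library. Of 298 groups of values examined, 18 had a library set far apart (about 15 are expected by chance, 1 in 20).

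Among tubule-poor libraries, RAAS-blocked replicate 6 stood apart by high Adamts4 (53.7 FPKM) and Maff (32.4 FPKM) and by low Igfbp5 (99.97 FPKM). RAAS-blocked replicate 4 stood apart by low Cox6a1 (340 FPKM), Jund (53.1 FPKM) and Rplp1 (580 FPKM). Untreated replicate 3 stood apart by high C1qb (552 FPKM), a complement gene of macrophages, and high Ctsb (444 FPKM), a lysosomal protease gene. Its Cd79b (7.10 FPKM) and Nkg7 (2.60 FPKM), genes of B cells and cytotoxic lymphocytes, stood apart as high too. Untreated replicate 8 had the highest Acta2, smooth muscle actin, at 281 FPKM.

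Among tubule-rich libraries, untreated replicate 1 had the highest Nupr1 (294 FPKM) and the lowest Acta2 (38.3 FPKM) and Eng (244 FPKM), a gene of endothelium. Untreated replicate 4 had the highest Rps29 (854 FPKM) and the lowest Sfrp2 (50.4 FPKM). RAAS-blocked replicate 5 had the highest Krt15 (0.465 FPKM) and untreated replicate 5 the highest Nkg7 (1.08 FPKM).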

How the results depend on the processing

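Direction and side of the threshold were the same in 3856 of the comparisons of a named gene with an alternative, with 50 gained calls, 440 lost calls and 4 reversals. The counts of higher and lower genes were 1034 and 3 under podocyte scaling, 1038 and 413 with all 16 libraries split at the median Slc34a1, and 972 and 298 with Slc34a1 as a continuous term. They were 303 and 79 with an exact Wilcoxon test, 292 and 27 in untreated libraries, 0 and 0 in RAAS-blocked libraries, 243 and 13 without untreated replicates 1 and 4, and 371 and 53 without RAAS-blocked replicates 4 and 6. The last 2 settings were chosen after seeing the data. Lower genes numbered 409 with array weights and 96 without the treatment term. Leaving out 1 library gave 349 (untreated replicate 4) to 944 (untreated replicate 5) higher genes and 34 (untreated replicate 4) to 365 (RAAS-blocked replicate 4) lower genes. Higher genes also fell below 670 by over 1.5 times without untreated replicates 0 (442) or 1 (418) or RAAS-blocked replicate 5 (414). The interaction gave 0 to 432 genes, and the treatment term 0 to 2, without 1 library. The treatment term gave 1 with no filter, 1 with the mean filter and 2 with array weights. These settings test fewer libraries or other scales, and the cause was not tested further.

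Deviations of same-numbered libraries from their treatment mean had correlations from -0.30 to 0.28 over 5 numbers. Tubule group was not removed from these deviations, so they cannot decide whether replicate numbers pair the libraries. A replicate block left 0 higher and 0 lower genes, and under it S100a8 (0.15), Maff (0.49), Foxs1 (0.76) and Tnfrsf12a (0.042) reversed sign without passing. Number 4 alone held both a tubule-rich library (untreated) and a tubule-poor one (RAAS-blocked). The rich-poor term of that fit therefore rested on this pair, and it cannot decide whether the calls depend on replicate number. Unknown depth limits what can be said of genes near 1 FPKM.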
